A study of Mus musculus with 25 samples.

Results

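The complement transcripts described here are those of 9 mouse genes, C1qa, C1qb, C1qc, C4b, C3, Cfb, Cfp, C3ar1 and C5ar1, taken by symbol from a table of 25006 gene entries. They were proposed as a group with the anti-CD73 and control values of this table already known, so the differences between the groups given below are a description of those genes and carry no test. All 9 were found, and all 9 had a mean of at least 10 normalized counts over the 6 libraries. Library RNA came from E0771 tumours, a mammary carcinoma line grown in C57BL/6 mice, and the labels call the material enriched CD8+ T cells of the tumour microenvironment. The 3 libraries of the anti-CD73 group came from mice given an antibody against CD73 every 3 days, and the 3 control libraries from mice the labels mark only as controls. CD73 is the ecto-enzyme that forms adenosine outside cells. No genetic change is named for either group. The sources used here do not state what the controls received, the age of the mice or the number of animals behind each library. A culture of purified CD8+ T cells for 7 days is written for every sample, and whether it applies to these libraries is not stated. The other 19 of the 25 samples, from spleen, were not analysed here.

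Complement is a cascade of plasma proteins that tags surfaces and recruits cells. The C1q complex, built from the chains of C1qa, C1qb and C1qc, recognises bound antibody and dying cells and starts the classical route through C4 and C2. C3 is where all routes meet, and factor B (Cfb) and properdin (Cfp) form and hold the alternative route's C3 convertase. The fragments C3a and C5a act on the receptors of C3ar1 and C5ar1. In tissues macrophages are a known main source of C1q, both receptors are known from myeloid cells, properdin from neutrophils, monocytes and macrophages, and C3, C4 and factor B are made by many cell types in inflammation.

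Library totals ran from 10180624 to 17161679 reads in genes. The labelled cell type was scarcely visible, with the 8 T cell marker genes summing to 267 to 511 normalized counts in anti-CD73 libraries and 134 to 561 in control libraries. The 10 macrophage marker genes summed to 10820 to 16452 normalized counts in anti-CD73 libraries and 5968 to 12436 in control libraries, so the complement values below describe mixed tumour material. In such bulk RNA, fewer cells of a type and less RNA per cell cannot be told apart. Control replicate 1 stood apart from the other controls, with log2 differences from their mean that had an SD of 0.75 across genes, against 0.35 for control replicate 2 minus control replicate 3. Where leaving it out moved a group difference by over 1.5 times, turned its sign or changed a call, the value without it is given too. It was singled out because its values stood apart, so calls made without it are a description. The labels do not say that replicates came from separate animals, so the spread between libraries may in part be technical.

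All 9 complement transcripts had a higher mean in anti-CD73 libraries than in control libraries (n = 3 each), as did 50.5% of all tested genes on the log2 scale. Ratios of the group means ran from 1.31 for C1qb to 2.85 for C3. For C3, Cfb, C4b and C1qa every anti-CD73 library lay above every control library, which makes 4 of 9. Among all 12262 tested genes, 11.5% were separated in this direction, 12.0% in the opposite one and 23.5% in either, and nothing is read from the count because the genes were proposed with these values in view. The 9 differences had a median of 0.79 on the log2(normalized count + 1) scale, beside 0.0039 for all tested genes. Without control replicate 1 these medians were 1.21 and -0.015. In all 9, anti-CD73 replicate 2 was the highest library of all 6 and anti-CD73 replicate 3 the lowest of its group. Control replicate 1 was the highest control for 8 of the 9, C1qa being the exception.

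**Figure D1:**
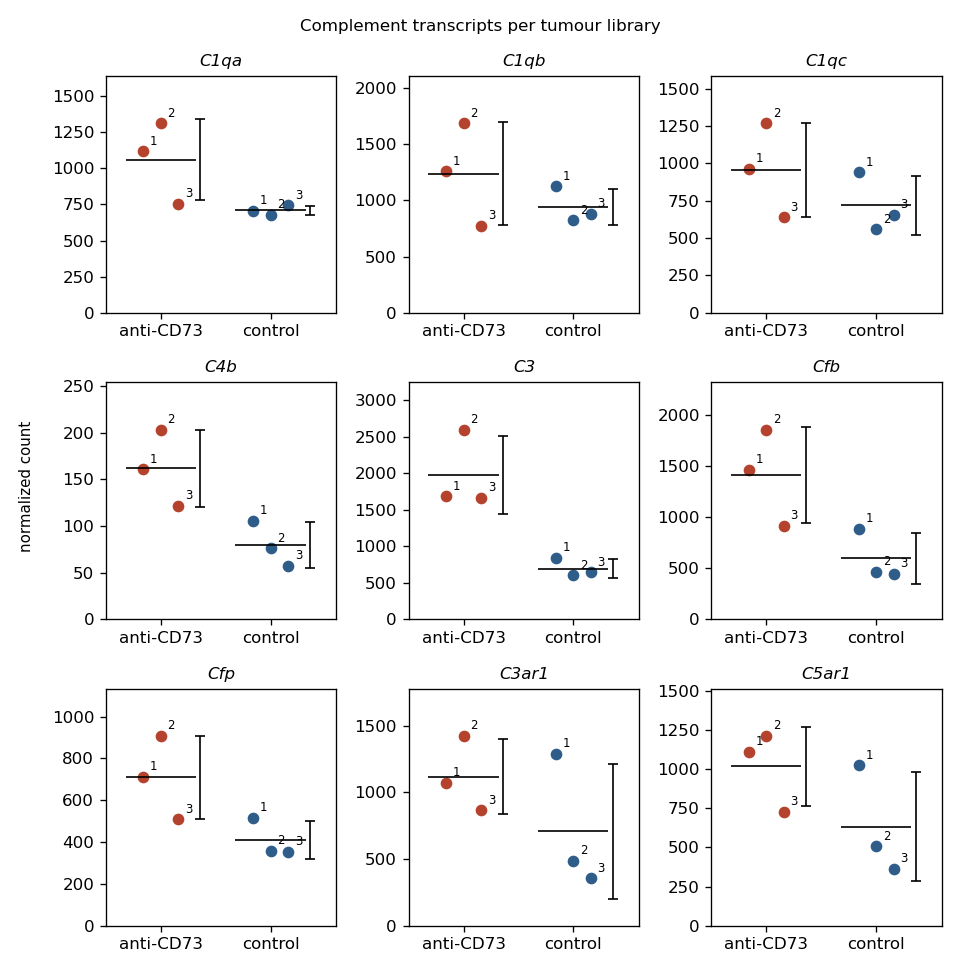
Normalized counts of the 9 complement genes in each library, with the replicate number beside each point, the group mean as a line and the SD as a bar (n = 3 per group). C3 shows the clearest gap, with 1659 as its lowest anti-CD73 value and 837 as its highest control value, while C1qb and C1qc overlap.

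C3, the protein on which every activation route converges (ENSMUSG00000024164; GRCm38.p6 chromosome 17, 57203967 to 57228136), stood at 1681, 2596 and 1659 normalized counts in anti-CD73 replicates 1, 2 and 3, against 837, 601 and 642 in control replicates 1, 2 and 3. The groups were far apart, and the lowest anti-CD73 library lay above the highest control. Means were 1979 ± 535 in anti-CD73 libraries and 693 ± 126 in control libraries (SD, n = 3 each). The log2 difference was 1.49, and 1.64 without control replicate 1. Of the members with a log2 difference above 1 (C3, Cfb and C4b), C3 moved least when that control was left out.

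Cfb, the serine protease of the alternative C3 convertase (ENSMUSG00000090231; chromosome 17, 34856374 to 34862514), had 1464, 1859 and 916 normalized counts in the anti-CD73 libraries, against 883, 461 and 445 in the controls. The groups were separated only by the narrow gap between anti-CD73 replicate 3 and control replicate 1. Its log2 difference was 1.26, and 1.58 without control replicate 1. Cfp, or properdin, which stabilises that convertase (ENSMUSG00000001128; chromosome X, 20925454 to 20931555), had 712, 906 and 508 normalized counts after anti-CD73, against 517, 357 and 354 in controls. Its groups overlapped by the width of 1 pair, as control replicate 1 lay just above anti-CD73 replicate 3, and the log2 difference was 0.77 with all libraries and 0.95 without that control.

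C4b, the classical and lectin route component that joins C2 in a C3 convertase (ENSMUSG00000073418; chromosome 17, 34728139 to 34743902), was measured at far fewer reads than the other members. It had 161, 203 and 121 normalized counts in anti-CD73 libraries, against 106, 76.0 and 56.9 in control libraries, and the groups did not overlap. Its smallest value rested on 60 reads (95% exact Poisson interval 45.8 to 77.2, counting error only). No other member had fewer than 282 reads in a library. The log2 difference was 1.03, and 1.25 without control replicate 1. C4a, the near-identical neighbour that RefSeq lists as a transcribed pseudogene, had 16.7, 11.6 and 11.3 normalized counts after anti-CD73, against 11.2, 13.9 and 20.2 in controls. The sources used here do not state how reads that match both were counted, so the split between C4b and C4a is uncertain.

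The C1q chain genes lie side by side on chromosome 4 within 18.7 kb, C1qb at 136880126 to 136886200, C1qc at 136889801 to 136892936 and C1qa at 136895916 to 136898844. C1qa (ENSMUSG00000036887) had 1119, 1312 and 754 normalized counts in anti-CD73 libraries, against 705, 678 and 745 in control libraries. Its groups were barely separated, since anti-CD73 replicate 3 lay just above control replicate 3. C1qb (ENSMUSG00000036905) had 1257, 1686 and 773 after anti-CD73, against 1124, 824 and 883 in controls. C1qc (ENSMUSG00000036896) had 961, 1267 and 638 after anti-CD73, against 940, 559 and 656 in controls. Anti-CD73 replicate 3 lay below every control library for C1qb, and among the controls for C1qc. The log2 differences were 0.54 for C1qa, 0.33 for C1qb and 0.39 for C1qc. Without anti-CD73 replicate 2 they were 0.37, 0.076 and 0.16, so the C1qb and C1qc differences lean on that library. Without control replicate 1 they were 0.54, 0.47 and 0.60.

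The C1q chain transcripts kept similar proportions from library to library. C1qb made up 37.7, 39.5 and 35.7% of the 3 transcripts' summed normalized counts in the anti-CD73 libraries, against 40.6, 40.0 and 38.7% in the controls. C1qa made up 33.5, 30.8 and 34.8% after anti-CD73, against 25.4, 32.9 and 32.6% in controls. Control replicate 1 was the odd one out, with the lowest C1qa share and, at 34.0%, the highest C1qc share. These shares also carry the lengths of the transcripts, so they compare libraries and not chains.

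In the anaphylatoxin receptor genes control replicate 1 stood far from the other controls. C3ar1, the receptor of C3a (ENSMUSG00000040552; chromosome 6, 122847140 to 122856157), had 1071, 1422 and 864 normalized counts in anti-CD73 libraries, against 1288, 484 and 353 in control libraries. C5ar1, the receptor of C5a (ENSMUSG00000049130; chromosome 7, 16246743 to 16259540), had 1115, 1213 and 730 after anti-CD73, against 1027, 507 and 364 in controls. In both genes control replicate 1 lay inside the anti-CD73 range, while the other controls lay below every anti-CD73 library. Control replicate 1 exceeded the mean of the other controls by 1.64 (C3ar1) and 1.25 (C5ar1) on the log2 scale, the widest such gaps among the 9 members, against 0.43 for C3 and -0.012 for C1qa. The log2 differences between groups were 0.86 for C3ar1 and 0.79 for C5ar1, and 1.40 and 1.21 without that control. Leaving out control replicate 3 instead lowered them to 0.47 and 0.46. Without control replicate 1, 7 of the 9 members had groups that did not overlap, C1qb and C1qc being the exceptions. Among all tested genes 25.7% were then separated in this direction.

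**Figure D2:**
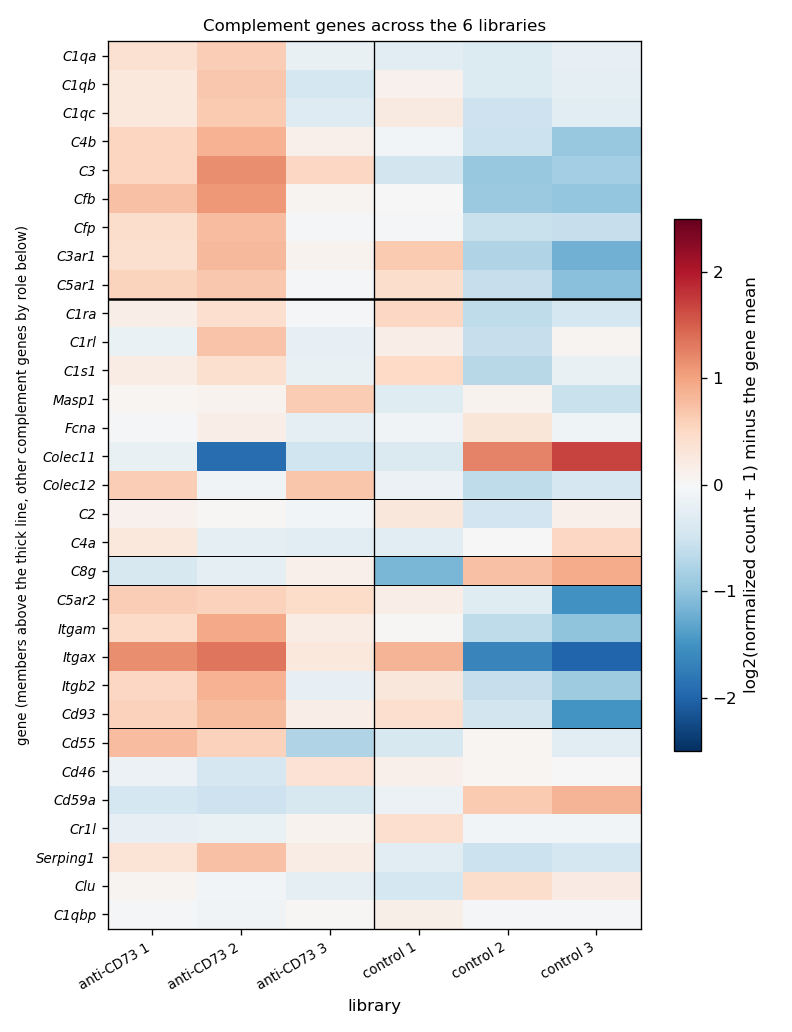
Each gene's log2(normalized count + 1) minus its mean over the 6 libraries, for the 9 members (above the thick line) and other tested complement genes grouped by role (initiation, convertase parts, terminal, receptors, regulators). C3ar1 and C5ar1 share a high control replicate 1, whereas C2, a neighbour of Cfb on the chromosome, has overlapping groups.

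The root mean square difference of the members' centred log2 values over the 6 libraries was smallest for C1qb with C1qc (0.10), then for C3ar1 with C5ar1 (0.16) and C4b with Cfp (0.18). It was widest for C3 with C1qb (0.61). By the same measure over 11762 other named genes, the 3 closest to each member were as follows. C1qa lay closest to Oas1c (0.064), an oligoadenylate synthetase gene, then to Rab3il1 (0.076) and Cnp (0.08). The nearest pattern to C1qb was that of Rab27a (0.077), a small GTPase gene, before Il12rb1 (0.096) and Znrd1as (0.10). For C1qc it was Il12rb1 (0.083), an interleukin receptor gene, followed by Samhd1 (0.11) and Natd1 (0.12). C4b lay closest to Fzd1 (0.057), a Wnt receptor gene, then to Dock8 (0.074) and Bst1 (0.074). The nearest pattern to C3 was that of Dock4 (0.11), an exchange factor gene, before Itga7 (0.13) and Cgnl1 (0.16). For Cfb it was Ocstamp (0.062), a gene of osteoclast fusion, followed by Tnfrsf14 (0.079) and Gngt2 (0.082). Cfp lay closest to Sp140 (0.071), a chromatin reader gene, then to Pnpla7 (0.088) and Snap47 (0.094). The nearest pattern to C3ar1 was that of Clec4a1 (0.055), a C-type lectin gene of myeloid cells, before Slc37a2 (0.08) and Mgat5 (0.083). For C5ar1 it was Ms4a6d (0.047), a membrane protein gene of the Ms4a family, followed by Rgl1 (0.058) and Slfn8 (0.062). With 6 libraries that share a few dominant contrasts, such likeness describes these libraries only.

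Start-site windows from RefSeq (GRCm38.p6, 250 bases before to 50 after the start) were matched by symbol for 6 of the 9 genes, and 4 are printed. C3 is shown for its wide difference (chr17:57228087-57228386, minus strand), C5ar1 for its pattern with a high control replicate 1 (chr7:16259289-16259588, minus strand), and C1qb (chr4:136886151-136886450, minus strand) and C1qc (chr4:136892865-136893164, minus strand) for the closest pair of patterns. Capitals mark matches to any of 4 motifs searched on both strands, the interferon-stimulated response element core GAAANNGAA, the STAT site TTCNNNGAA, an NF-kB-like pattern GGNNNTTCC and the PU.1 core GAGGAA.
C3: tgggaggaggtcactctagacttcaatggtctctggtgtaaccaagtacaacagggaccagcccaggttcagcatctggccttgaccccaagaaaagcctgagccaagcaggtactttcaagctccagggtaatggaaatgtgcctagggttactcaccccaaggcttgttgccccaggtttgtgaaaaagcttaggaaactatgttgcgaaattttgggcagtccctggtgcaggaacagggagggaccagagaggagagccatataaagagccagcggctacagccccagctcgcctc
C5ar1: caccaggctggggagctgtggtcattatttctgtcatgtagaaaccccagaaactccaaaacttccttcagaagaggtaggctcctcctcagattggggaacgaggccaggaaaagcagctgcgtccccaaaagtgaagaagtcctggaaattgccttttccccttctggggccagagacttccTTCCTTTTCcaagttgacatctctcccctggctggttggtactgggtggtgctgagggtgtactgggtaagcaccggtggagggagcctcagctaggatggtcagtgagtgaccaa
C1qb: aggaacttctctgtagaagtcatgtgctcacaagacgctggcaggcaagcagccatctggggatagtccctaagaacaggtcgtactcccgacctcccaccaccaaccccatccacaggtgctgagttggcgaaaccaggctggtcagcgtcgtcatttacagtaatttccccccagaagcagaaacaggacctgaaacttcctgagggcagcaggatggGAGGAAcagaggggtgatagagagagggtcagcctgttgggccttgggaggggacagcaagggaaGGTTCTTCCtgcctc
C1qc: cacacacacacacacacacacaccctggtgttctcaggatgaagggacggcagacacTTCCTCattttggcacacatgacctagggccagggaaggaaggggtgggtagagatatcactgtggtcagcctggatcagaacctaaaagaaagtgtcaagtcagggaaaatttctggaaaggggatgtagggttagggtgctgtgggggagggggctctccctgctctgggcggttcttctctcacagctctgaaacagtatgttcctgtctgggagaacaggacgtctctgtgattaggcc

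Of the 6 windows, 3 held the PU.1 core (C1qb, C1qc and Cfp), beside 28.3% of all 32851 windows of this length. The NF-kB-like pattern stood in 2 (C1qb and C3ar1), beside 18.5% of all windows, and the 2 matches in C3ar1 overlap on opposite strands. The response element core stood in 1 (C5ar1, from -66 to -58 on the opposite strand, counted from the start site), beside 8.56% of all windows, and the STAT site in 0, beside 8.30%. The start site used for the C5ar1 window lies inside the gene interval given above, which reaches 16259540, so this match also lies inside that interval. The C3 window had no match to these 4 motifs. In C1qb the PU.1 core lay from -30 to -25, and in C1qc from -193 to -188 on the opposite strand. A match to such short letters is a description of the sequence and was not tied to the expression values.

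The rest of the system was read from a list of 49 other complement genes drawn up by role, of which 23 had a mean of at least 10 normalized counts and were tested. By limma with Benjamini-Hochberg adjustment over all 12262 tested genes, 0 of the 23 passed at 0.05, as did 0% of all tested genes (smallest adjusted p 0.141). The quasi-likelihood test of edgeR also gave 0. DESeq2 gave 2 (Itgam and Serping1, both higher), beside 4.64% of the 11675 genes with a DESeq2 adjusted p (2.82% higher and 1.82% lower). It gave no adjusted p for some of the 23, among them Colec11, Colec12, C4a and Cd55. At an unadjusted limma p under 0.05, 5 of the 23 were higher and 2 lower, beside 8.69% and 6.82% of all tested genes (15.5% in either direction). Their median log2 fold change was 0.26, and 14 of 23 lay above 0. Without control replicate 1, limma called 8 of them higher and 3 lower, beside 11.9% and 10.3% of all tested genes (22.2% in either direction). Leaving out any other library gave 0 calls, and that control was singled out because its values stood apart.

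None of the 7 tested genes of the start of the cascade passed the test (limma and edgeR 0, DESeq2 0). DESeq2 gave no adjusted p for Colec11 and Colec12. At an unadjusted limma p under 0.05, 1 of the 7 was lower, beside 6.82% of all tested genes. C1ra, a protease of the C1 complex, averaged 233 ± 37.7 normalized counts in anti-CD73 libraries and 190 ± 87.1 in control libraries (SD, n = 3 each; limma log2 fold change 0.37, SE 0.31, adjusted p = 0.604). Its partner protease gene C1s1 averaged 711 ± 141 after anti-CD73 and 621 ± 257 in controls (log2 fold change 0.26, SE 0.30). Without control replicate 1, C1ra had a log2 fold change of 0.72 and passed (limma adjusted p = 0.0185), and C1s1 had 0.57 and did not (limma adjusted p = 0.0627). Colec11, a lectin route recognition molecule, had 9.30, 2.12 and 7.20 normalized counts in anti-CD73 libraries and 8.12, 26.6 and 36.7 in controls, where control replicate 1 again lay with the anti-CD73 libraries (limma log2 fold change -1.72, SE 0.68, adjusted p = 0.292). Without that control its limma adjusted p was 0.0201. Colec12, a scavenger receptor collectin named here after its values were seen, had 19.5, 11.6 and 20.6 normalized counts after anti-CD73, against 11.2, 7.60 and 8.98 in controls. Its groups did not overlap, and it did not pass (limma log2 fold change 0.81, SE 0.37, adjusted p = 0.350).

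C2 and Cfb, paralogous proteases of the classical and the alternative convertase, are neighbours 87 bases apart on chromosome 17. C2 had 874, 823 and 765 normalized counts in anti-CD73 libraries, against 984, 578 and 878 in controls, and the groups overlapped throughout. Its log2 fold change was 0.047 (limma SE 0.20, adjusted p = 0.933), and 0.20 without control replicate 1 (limma adjusted p = 0.402). The ratio of Cfb to C2 within a library was 1.67, 2.26 and 1.20 after anti-CD73, against 0.90, 0.80 and 0.51 in controls, and the groups did not overlap. As Cfb was proposed with its difference known, the ratio is a description.

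Receptor genes outside the 9 members lay higher in anti-CD73 libraries without passing the test. All 5 tested had a positive log2 fold change, beside 50.5% of all tested genes, with a median of 1.08. They were C5ar2, Cd93 and the integrin chain genes Itgam, Itgax and Itgb2, and Itgax is also on the dendritic cell marker list. Only C5ar2 and Itgam had groups that did not overlap, beside 11.5% of all tested genes in this direction. Without control replicate 1 all 5 passed as higher, beside 11.9% of all tested genes, and their median was 1.47. C5ar2, the second C5a receptor gene, lies 2588 bases from C5ar1 and had 49.3, 47.6 and 44.2 normalized counts after anti-CD73, against 35.5, 25.3 and 10.5 in controls (limma log2 fold change 1.11, SE 0.43, adjusted p = 0.286). The groups did not overlap. The log2 fold change was 1.47 without control replicate 1 (limma adjusted p = 0.0230) and 0.63 without control replicate 3. Itgam, the integrin chain of a receptor for C3 fragments that also marks myeloid cells, averaged 2570 ± 694 after anti-CD73 and 1241 ± 467 in controls (log2 fold change 1.08, SE 0.29, limma adjusted p = 0.178; DESeq2 adjusted p = 0.0225), and without control replicate 1 its log2 fold change was 1.37 (limma adjusted p = 0.00329). Cd93, a receptor once assigned to C1q, averaged 859 ± 184 after anti-CD73 and 477 ± 293 in controls (log2 fold change 1.02, SE 0.44, limma adjusted p = 0.323), and without control replicate 1 its log2 fold change was 1.49 (limma adjusted p = 0.00764). Without control replicate 3 its log2 fold change was 0.53. Cr2, the B cell receptor for C3 fragments, and Vsig4, the receptor of resident macrophages, were near the limit of detection, at no more than 2.06 normalized counts in any library.

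Among the regulators, 3 of the 8 tested lay higher and 5 lower, and 0 passed. Serping1, the C1 inhibitor, had 95.8, 126 and 86.4 normalized counts after anti-CD73, against 63.0, 51.9 and 55.4 in controls, and the groups did not overlap (limma log2 fold change 0.83, SE 0.22, adjusted p = 0.178; DESeq2 adjusted p = 0.0470). Cd59a, the membrane inhibitor of pore formation, went the other way, with 27.9, 26.5 and 28.8 after anti-CD73 against 34.5, 60.8 and 69.6 in controls (limma log2 fold change -0.90, SE 0.31, adjusted p = 0.236). Without control replicate 1, Serping1 and Cd59a passed (limma adjusted p = 0.0194 and 0.00989). The membrane regulators Cr1l (log2 fold change -0.19, SE 0.18), Cd46 (-0.13, SE 0.28) and Cd55 (0.41, SE 0.48) and the chaperone Clu (-0.14, SE 0.22) did not pass, with limma adjusted p-values of 0.640, 0.854, 0.724 and 0.806. When control replicate 1 was left out, Clu passed as lower (log2 fold change -0.39, limma adjusted p = 0.0372) and Cr1l had a log2 fold change of -0.029 (limma adjusted p = 0.891).

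**Figure D3:**
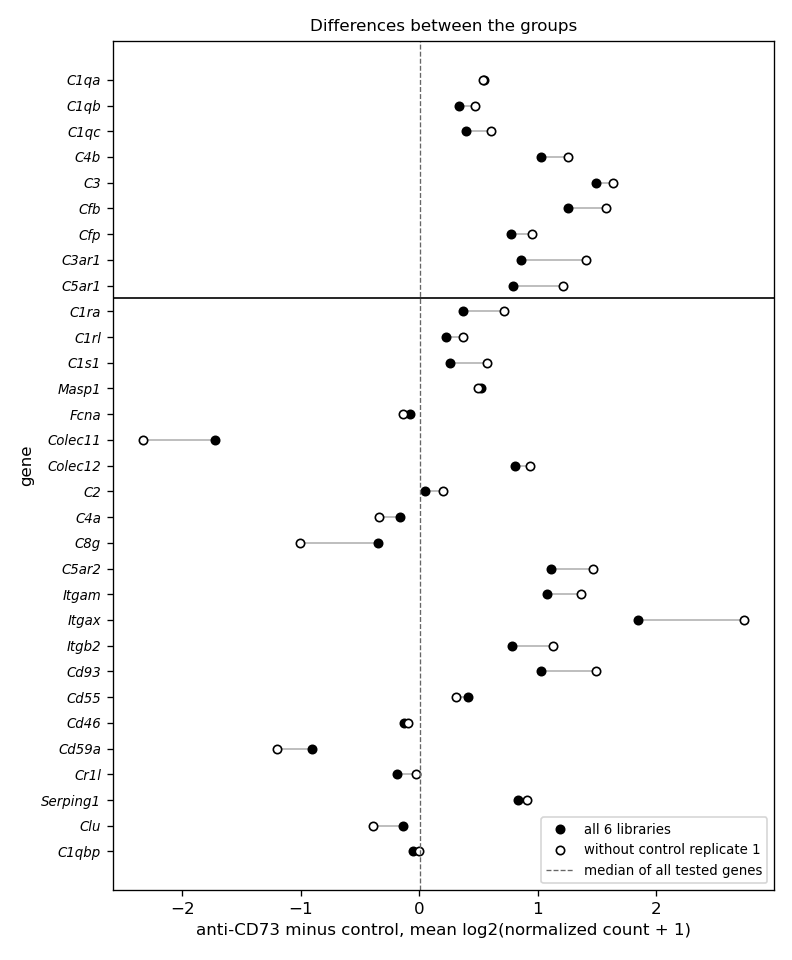
Difference between the anti-CD73 and control means of log2(normalized count + 1) for the 9 members (above the line) and other tested complement genes, with all 6 libraries (filled) and without control replicate 1 (open). All 9 members lie right of the median of all tested genes, and among them C3ar1 moves most when that control is left out, to 1.40 against 0.86 with all libraries.

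Parts of the cascade were at or near 0 in every library. Of the 26 listed genes that were not tested, 8 had no read in any library, which allows up to 3 reads per library (counting error only). They include the pore components C7, C8a and C8b and the mannose-binding lectin genes Mbl1 and Mbl2. Hc, which encodes C5, had at most 8.12 normalized counts and was at 0 in 3 of 6 libraries. Cfd, the protease that activates factor B, had 9.30, 10.6 and 7.20 normalized counts after anti-CD73, against 4.06, 11.4 and 9.73 in controls. Cfi, which inactivates C3b and C4b, reached no more than 2.03.

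Cell markers differed between the groups as well, and not all in the direction of the members. Of the 10 macrophage genes 9 lay higher after anti-CD73 (median log2 difference 0.70), of the 9 tested neutrophil genes 7 (0.89), of the 6 dendritic cell genes 6 (0.52), of the 8 T cell genes 8 (0.68), of the 10 interferon response genes 8 (0.60), of the 3 endothelial genes 3 (1.16) and of the 8 fibroblast genes 5 (0.16). In the opposite direction, 0 of the 4 erythroid genes (-0.73) and 1 of the 3 epithelial or tumour genes (-0.29) lay higher, and the only tested B cell gene lay lower (-0.77). The erythroid sum was 8164 to 30592 normalized counts in anti-CD73 libraries and 7760 to 58062 in control libraries. The neutrophil sum was 8579 to 15267 after anti-CD73 and 5859 to 7936 in controls, and the interferon response sum 20666 to 36052 after anti-CD73 and 17063 to 29099 in controls.

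Control replicate 1 differed from the other controls by medians of 0.82 for macrophage, 0.98 for dendritic cell, 2.49 for T cell, 1.93 for endothelial and -3.10 for erythroid genes on the log2 scale, and by -0.18 for neutrophil genes. Without it the median group differences were 0.99 for macrophage, 0.39 for neutrophil, 0.81 for dendritic cell, 1.31 for T cell, 1.98 for endothelial, 0.36 for fibroblast, -1.66 for erythroid and -0.16 for epithelial or tumour genes. No macrophage, neutrophil or T cell marker was at 0 in all libraries. The part these cells play in the complement differences was not tested.

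Members were also set against the summed macrophage markers of the same library. Per 1000 normalized counts of macrophage markers, C3 had 115, 158 and 153 in anti-CD73 libraries, against 67.3, 73.7 and 108 in control libraries, and the groups did not overlap. Cfb had 100, 113 and 84.7 after anti-CD73, against 71.0, 56.6 and 74.6 in controls, again without overlap. C4b had 11.0, 12.4 and 11.2 after anti-CD73, against 8.49, 9.33 and 9.53 in controls, also without overlap. On this scale the log2 differences were 0.79 for C3, 0.56 for Cfb and 0.34 for C4b. With control replicate 1 left out they were 0.66, 0.60 and 0.29, and the groups again did not overlap. The share of all genes separated on such a scale was not computed. As C3, Cfb and C4b were proposed with their differences known, their separation is a description.

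The separation depended on the marker list and on that control. Per neutrophil marker counts the groups of C3, Cfb and C4b overlapped, with log2 differences of 0.71, 0.47 and 0.25. Leaving out control replicate 1 gave 0.96, 0.91 and 0.59, and groups of all 3 that did not overlap. Per dendritic cell marker counts the log2 differences were 0.63 for C3, 0.39 for Cfb and 0.17 for C4b, and only the groups of Cfb did not overlap. With that control left out they were 0.37, 0.31 and -0.0064, again with no overlap for Cfb alone. Of dendritic cell sums of 1071, 974 and 688 in anti-CD73 libraries, Itgax made up 461, 516 and 247 normalized counts. Of sums of 864, 386 and 355 in controls it made up 371, 64.6 and 50.9. S100a8 and S100a9 had the highest counts of the neutrophil list in every library.

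The C1q sum had 229, 259 and 200 per 1000 macrophage marker counts in anti-CD73 libraries, against 223, 253 and 383 in control libraries, with overlapping groups and a log2 difference of -0.29 (SD of the log2 values within groups 0.32). That difference was -0.058 without control replicate 3, the library with the highest ratio, and -0.45 without control replicate 1. C3ar1 had a log2 difference of 0.16 on this scale, C5ar1 0.092 and Cfp 0.074, each with overlapping groups. In the absence of control replicate 1 they were 0.43 for C3ar1 and 0.23 for C5ar1, whose groups then did not overlap, and -0.024 for Cfp, whose groups did. The macrophage sum is weighted by Cd14, which took 41.1 to 53.5% of it. With Cd14 left out, a choice made after seeing the data, C3, Cfb and C4b again had groups that did not overlap (log2 differences 0.78, 0.54 and 0.32), and the C1q sum had -0.30. When control replicate 1 was left out as well, these were 0.55, 0.49 and 0.18, and the C1q sum had -0.56, with groups that did not overlap.

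**Figure D4:**
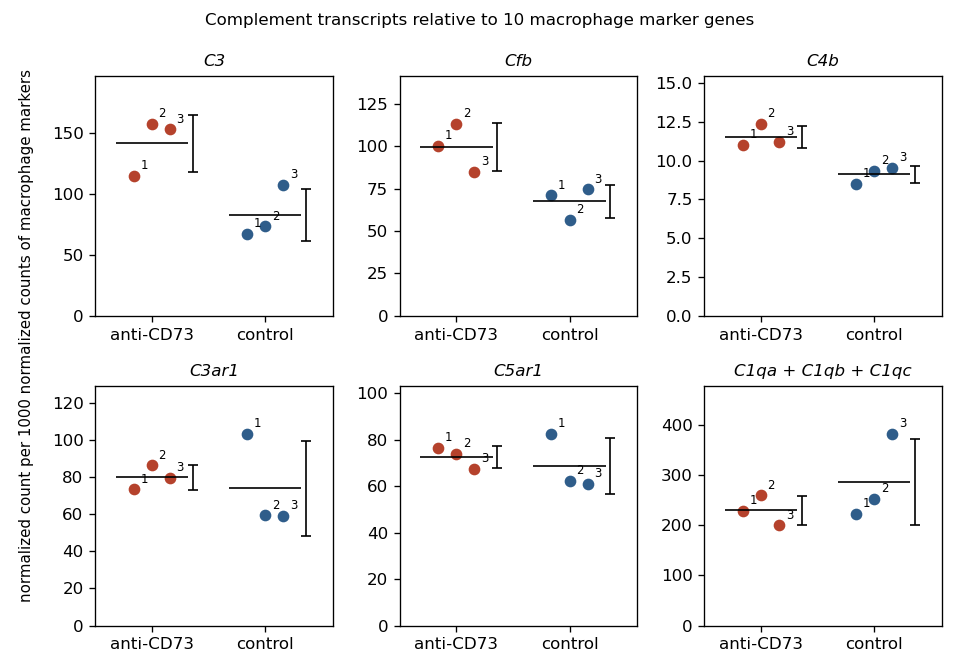
Normalized counts of C3, Cfb, C4b, C3ar1, C5ar1 and the C1q sum per 1000 normalized counts of 10 macrophage marker genes in the same library, with the replicate number beside each point, the group mean as a line and the SD as a bar (n = 3 per group). C3, Cfb and C4b keep the groups apart on this scale, while the C1q sum reaches its highest value, 383, in control replicate 3.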

How the data were processed

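The deposited signal values are normalized gene counts: the labels name DESeq, and each column is a whole multiple of 1 step, as division by a library's size factor gives. The submitters' processing notes name Bowtie 0.12.7 and mm10 without a role. No source used here states the counter, its strand setting or its handling of reads with several matches. Columns were matched to samples by description, and groups and replicate numbers came from the titles. Whole reads were recovered by dividing by the smallest value above 0 of each column (100% whole within 0.01). The table held 0 other columns of values. Of the entries, 24082 carry a symbol and 887 more were named by Ensembl ID from the reference table. Depth was 10180624 to 17161679 reads, and intervals cover counting error only.

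All genes with a mean of at least 10 were fitted with limma 3.58.1 (R 4.3.3; trend, no block, two-sided) on log2(normalized count + 1), a scale that understates changes of low genes, with Benjamini-Hochberg adjustment. edgeR 4.0.16 and DESeq2 1.42.0 were run on recovered reads. Of these steps, only the limma fit was tested on simulated data. The 9 members get no test. Members and lists were chosen with earlier results of these data known. Of the other complement genes, 18 were named whatever their values, plus those past the threshold and the 3 smallest p in each direction; 1 gene of the list counts in its totals but is not reported here. The 5 genes with no read, and Itgax and Itgb2, were named after their values were seen. Coordinates are 1-based RefSeq positions on GRCm38.p6, matched by symbol; promoter windows were found for 6 of 9 members. Figures used matplotlib 3.10.9.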

Additional observations from a re-analysis of the deposited data

How the results depend on the processing

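The members' median log2 difference stayed positive under all 16 alternatives (0.58 to 1.21), and no member changed sign. As the members were chosen with their higher values known, the shared sign is a description. Changing the filter, blocking by replicate number or using the robust version cannot alter a member's difference. Under those settings the members' median stayed at 0.79, so they say nothing about its stability. With each library left out in turn, that median ran from 0.58 to 1.21, the median of the other complement genes from 0.056 to 0.39, and the C1q to macrophage marker difference from -0.45 to -0.058. Leaving out each library gave 0 to 2724 called genes and 0 to 11 called other complement genes, and the high values came only from leaving out control replicate 1. DESeq2 called 542 genes and 2 other complement genes; the cause was not tested. Genes that changed direction had small fold changes: leave-one-out ranges were -0.35 to 0.041 for Cd46, -0.024 to 0.57 for C1s1, -0.18 to 0.20 for C2, -0.39 to 0.04999 for Clu and -0.34 to 0.057 for C4a. With the replicate number of the titles as a block, limma again called 0 genes and 0 other complement genes. Deviations of same-numbered libraries had correlations of 0.189, -0.0963 and 0.262, against -0.2742 to 0.1865 for differently numbered ones. In the sample descriptions, all anti-CD73 libraries and control replicate 3 carry other numbers than in the titles. The title numbers were not taken as pairs. The remaining settings of that fit, and edgeR, also gave 0 called genes: either pseudocount (0.5 or 8), either filter (none, or a mean of 50), either scaling (quantile or TMM) and the robust version. The depth leaves Colec11, C4a and the pore genes poorly measured.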
